A study of Saccharomyces cerevisiae with 25 samples.

Results

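Phosphate starvation in budding yeast was followed over a time course, and the comparison described here lies in its early part. Libraries taken 75, 90 and 105 min after the removal of phosphate were set against libraries taken at 15, 30 and 45 min of the same course. These are 6 of the 25 libraries of the series, picked by the time on their labels, and the 60 min library between the groups and the shallow 120 min library after them were left out. Of 6650 named genes, 4840 had a value in all 6 libraries and were tested. RNA was measured by sequencing in wild type cells of BY4741, a haploid laboratory strain of mating type a. Its HIS3, LEU2, MET17 and URA3 genes have been deleted. The cells of both groups had been grown overnight with ample phosphate, washed, and moved to medium that lacks it. There was 1 library for each time, so 3 neighbouring times stand in for replicates, and a p-value here reflects the spread among samples at neighbouring times. How many cultures the samples came from is not given in the labels.

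Yeast senses phosphate through the PHO pathway. When phosphate is plentiful, the cyclin-kinase complex of Pho80 and Pho85 phosphorylates the transcription factor Pho4 and keeps it out of the nucleus. When phosphate runs short, the inhibitor Pho81 stops the kinase, and Pho4 turns on genes that import phosphate, free it from organic molecules and manage polyphosphate, the phosphate store of the vacuole. A move to a poorer medium also touches general programs, among them the environmental stress response, ribosome production and the cell cycle.

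HIS3, LEU2, MET17 and URA3 were listed in 0 of the 25 libraries. STE2, the receptor made by cells of mating type a, lay between 8.69 and 8.89 log2 RPM in the 6 libraries, where RPM are reads in a library scaled so that all its genes sum to 1000000, and STE3, the receptor of the other mating type, between 4.53 and 5.23. Depth was recovered by taking the lowest value of each library as 10 reads. It was 1737019, 852781 and 1148249 reads at 75, 90 and 105 min, and 1258006, 1217172 and 1221312 reads at 15, 30 and 45 min. Counting alone gives a log2 SD of 0.46 at the lowest value listed, so small changes of scarce genes were not detectable at this depth. Levels are relative to the library sum and come from bulk RNA, in which fewer cells that use a gene and less of its RNA per cell cannot be told apart.

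Few genes passed the test between the groups, and many of those that did changed by little. Of the 4840 genes, 43 rose (0.888%) and 49 fell (1.01%) at an adjusted p under 0.05 (limma, Benjamini-Hochberg over all genes tested, two-sided), whereas 596 had an unadjusted p under 0.05 (12.3%). The median change of all genes was 0.01 on the log2 scale, with 2516 changes above 0 and 2324 below. All 3 late values lay above all 3 early ones in 469 genes (9.69%) and below them in 369 (7.62%). Among the genes that passed, the same was true of 43 of 43 that rose and 48 of 49 that fell. The test uses the same values and favours such genes, so a lack of overlap is no further support for a call. Of the 92 changes that passed, 44 were under 0.5 log2 units in size. Of the 14 genes with a change of at least 1 log2 unit in either direction, 7 passed.

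A gene that kept moving inside a group has a large spread in this test, and several of the largest changes did not pass. The trend over time was therefore also fitted as a straight line through the 7 libraries from 15 to 105 min, the 60 min library included, and is given below as the change over 60 min. By this slope 55 genes rose (1.14%) and 43 fell (0.888%), and 71 of the 92 genes above passed in the same direction. The calls between the groups depend on how the spread is estimated. The same values gave 0 genes in either direction with limma's moderation without its trend and robust options. There 556 genes had an unadjusted p under 0.05 and the lowest adjusted p was 0.0693. Higher and lower counts were 20 and 28 without the 90 min library, 21 and 34 without 105 min, 21 and 26 without 30 min, 30 and 32 without 75 min, 70 and 72 without 15 min, and 62 and 66 without 45 min. Adding the 60 min library to the early group gave 24 and 31, and adding the 120 min library to the late group gave 0 and 0, where 368 genes had an unadjusted p under 0.05. In all 6 fits with a library left out 17 of the genes that rose and 22 of those that fell passed. A call that did so is described below as held. The slope was fitted only with the trend and robust options and with all 7 libraries, so its p-values were not put to these alternatives. Those p-values also treat the serial samples as independent.

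**Figure D1:**
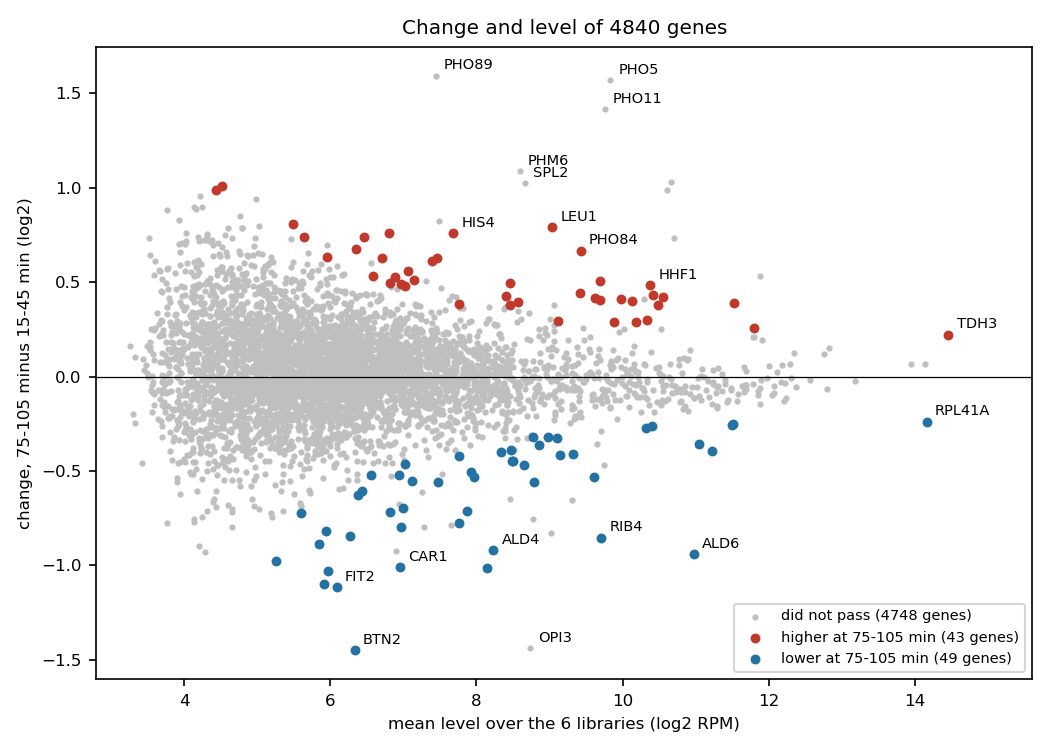
Change between 75-105 and 15-45 min (log2, vertical axis) against the mean level over the 6 libraries (log2 RPM, horizontal axis) for 4840 genes, with the 43 genes that rose in red, the 49 that fell in blue and the rest in grey. PHO89 at 1.59 and OPI3 at -1.44 lie far out without passing, while TDH3 at 0.22 and RPL41A at -0.24 passed near the right edge.

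Genes of the phosphate regulon stood higher in the late group than in the early one. Of 22 listed members, 19 had values in all 6 libraries, and 5 of these rose, namely PHO84, VTC3, VTC4, PHM8 and KCS1, against 0.888% of all genes. The other 14 did not pass, yet the change of each of the 19 was above 0, and the median was 0.67 beside 0.01 for all genes tested. In 14 of the 19 the 3 late values lay above the 3 early ones, against 9.69% of all genes. By the slope 11 members rose, against 1.14% of all genes, and 6 rose with each library centred on its median gene, against 0.868%. With 1 library left out, 3 members passed without the 90, 105 or 30 min library, 8 without 75 min and 10 without 15 min, out of the 30 and 70 genes that rose in the last 2 fits. Together the listed members held 1.29%, 1.50% and 1.53% of reads at 75, 90 and 105 min, and 0.630%, 0.876% and 1.01% at 15, 30 and 45 min.

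Among the uptake genes, PHO84, the high-affinity phosphate transporter (chromosome XIII, 24037 to 25800, build R64), had 9.62, 9.88 and 9.78 log2 RPM at 75, 90 and 105 min, against 8.85, 9.17 and 9.26 at 15, 30 and 45 min. Every late value was above every early one. The change was 0.67 (SE 0.094, limma adjusted p = 6.22e-05), and the call held. An antisense transcript, YNCM0001W, lies opposite PHO84 over 1764 bases, and the strand used in counting is not given, so reads from the pair cannot be told apart. PHO89, the sodium-coupled transporter, had 7.81, 8.19 and 8.71 log2 RPM in the late libraries, against 6.08, 6.50 and 7.36 in the early ones. Its value was higher in each library than in the one before within both groups, and its change of 1.59 (SE 0.445), the largest of all genes tested, had a limma adjusted p of 0.271. Its slope of 1.68 (SE 0.116) did pass (limma adjusted p = 2.38e-14). SPL2, a small protein that dampens low-affinity phosphate transport, had 9.13, 9.29 and 9.11 log2 RPM late, against 7.31, 8.41 and 8.75 early. Its 15 min value was far below the other 5, and neither the change of 1.02 (limma adjusted p = 0.456) nor the slope of 1.08 (limma adjusted p = 0.239) passed. PHO86, which helps Pho84 leave the endoplasmic reticulum, had a change of 0.13 (limma adjusted p = 0.677) with overlapping groups. GIT1, a transporter of glycerophosphoinositol, was listed in the 75 and 90 min libraries of the 6, near the lowest value listed. The low-affinity transporter genes PHO87, PHO90 and PHO91 had changes of -0.51, 0.21 and 0.12, and their limma adjusted p-values were 0.367, 0.628 and 0.829.

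Polyphosphate is made at the vacuole by a polymerase complex in which Vtc4 is the catalytic subunit. VTC4 (chromosome X, 411234 to 413399) had 9.85, 10.10 and 9.88 log2 RPM at 75, 90 and 105 min, against 9.22, 9.54 and 9.56 at 15, 30 and 45 min. The groups did not overlap, and the change of 0.50 (SE 0.088, limma adjusted p = 0.000828) held. VTC3, a further subunit, had 10.59, 10.71 and 10.59 log2 RPM late, against 10.01, 10.24 and 10.34 early, a change of 0.43 (SE 0.072, limma adjusted p = 0.000285) that also held. VTC1 had a change of 0.73 (limma adjusted p = 0.309) and passed by the slope (0.75, limma adjusted p = 0.0111). VTC2 had a change of 0.26 (limma adjusted p = 0.178). PPN1, an enzyme that cuts polyphosphate, had a change of 0.04 (limma adjusted p = 0.934). YNL217W, which RefSeq names PPN2, another polyphosphatase, is outside the list and rose by 0.48 (SE 0.13, limma adjusted p = 0.0373), a call that was kept in 1 of the 6 fits with a library left out. The window upstream of VTC4 is shown because it holds the Pho4 core in 2 places in a gene whose call held. The letters CACGTG, which read the same on both strands, are in capitals and begin 125 and 113 bases before the start codon, and the window runs from 250 bases before the start codon to 50 bases into the gene on the minus strand (chrX:413350-413649, build R64, from the RefSeq reference genome).
VTC4: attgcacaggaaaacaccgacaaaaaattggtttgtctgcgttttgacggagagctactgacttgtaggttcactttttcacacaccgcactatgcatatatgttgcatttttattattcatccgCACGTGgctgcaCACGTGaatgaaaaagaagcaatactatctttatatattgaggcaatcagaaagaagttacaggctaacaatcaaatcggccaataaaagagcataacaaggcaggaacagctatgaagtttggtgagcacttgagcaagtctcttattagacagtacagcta
CACGTG was found in 4 of the 19 windows of the regulon (21.1%), in 3 of the 43 windows of genes that rose (6.98%) and in 3.30% of the 4734 windows that could be read. A match describes letters in the window and no more, and sites further upstream than 250 bases were not searched.

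The secreted acid phosphatase genes had their higher values in the late libraries. PHO5, the main one (chromosome II, 429548 to 430951), had 10.21, 10.64 and 10.99 log2 RPM at 75, 90 and 105 min, against 8.74, 9.12 and 9.28 at 15, 30 and 45 min. Each library was above the one before it. The change of 1.57 (SE 0.27) had a limma adjusted p of 0.112, while the slope of 1.53 (SE 0.0694) passed (limma adjusted p = 8.32e-21). PHO11 had 10.27, 10.49 and 10.62 log2 RPM late, against 8.01, 9.39 and 9.73 early, and PHO12 had a change of 1.03. PHO11 and PHO12 are near-identical copies, and PHO5 shares stretches with its neighbour PHO3, so reads could be split among them. None of the 3 passed between the groups in limma, although all 3 had an unadjusted p under 0.05 and no overlap between the groups.

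Of the internal phosphatases, PHM8, which acts on nucleotides and lysophosphatidic acid, had 6.78, 7.22 and 7.55 log2 RPM late, against 6.10, 6.46 and 6.71 early. It rose by 0.76 (SE 0.19, limma adjusted p = 0.0492), and it did not pass without the 90, 105 or 30 min library. GDE1, a glycerophosphocholine phosphodiesterase, HOR2, a glycerol-3-phosphate phosphatase, and PHO8, the vacuolar alkaline phosphatase, had changes of 0.60, 0.82 and 0.30 with limma adjusted p-values of 0.0577, 0.208 and 0.755. GDE1 and HOR2 passed by the slope, at limma adjusted p-values of 0.0111 and 0.0115. PHM6, a regulon member of unknown function, had a change of 1.09 (limma adjusted p = 0.202) and passed by the slope (limma adjusted p = 2.70e-12).

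Of the 11 PHO signalling genes tested 2 rose (background 0.888%), both for enzymes of inositol phosphate metabolism. KCS1, an inositol hexakisphosphate kinase, had 6.63, 6.84 and 7.06 log2 RPM late, against 6.34, 6.30 and 6.30 early, a change of 0.53 (SE 0.15, limma adjusted p = 0.0455). Its early values were level and its late ones climbed. PLC1, phospholipase C, rose by 0.49 (SE 0.13, limma adjusted p = 0.0391). KCS1 passed in 2 and PLC1 in 1 of the 6 fits with a library left out, and KCS1 is also counted among the regulon members above. The other such enzymes in the list, ARG82, IPK1, VIP1 and DDP1, had changes of -0.20, 0.28, 0.34 and 0.31. None of them passed (limma adjusted p = 0.859, 0.737, 0.304 and 0.271). The regulator PHO81 had a change of 0.12 (limma adjusted p = 0.761), PHO85 one of 0.43 (limma adjusted p = 0.308) and PHO4 one of -0.35 (limma adjusted p = 0.589).

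**Figure D2:**
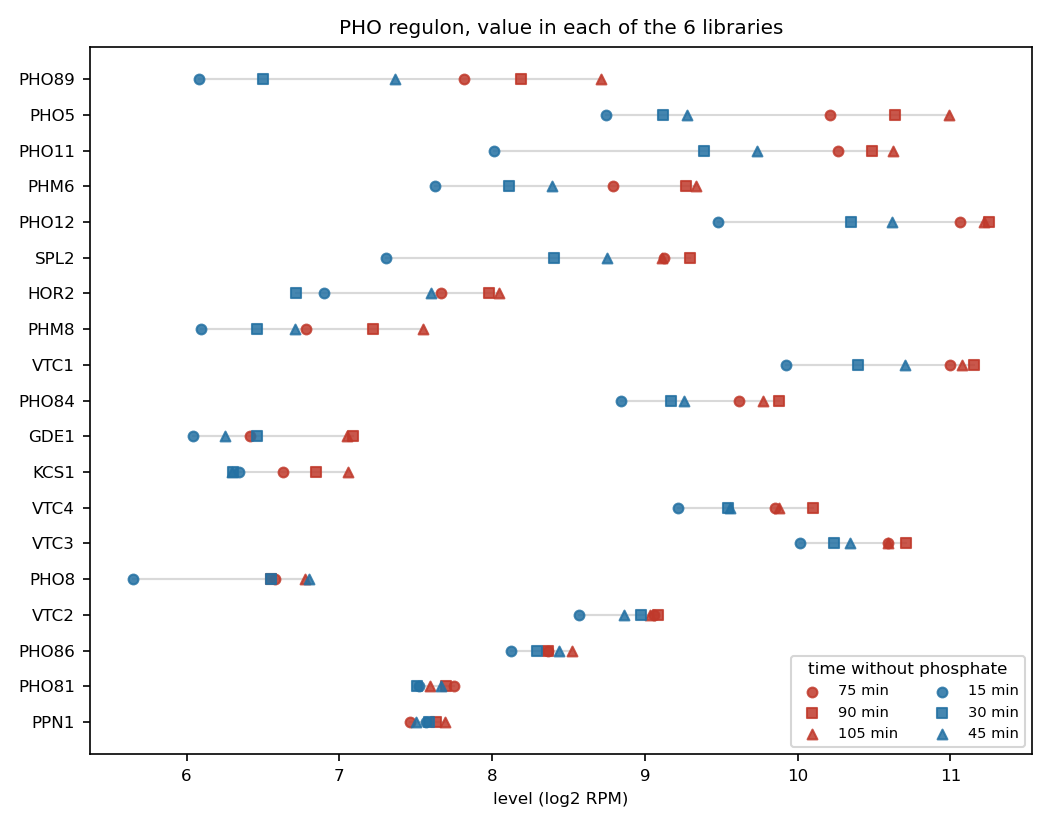
Level (log2 RPM) of each of the 19 PHO regulon genes in the libraries at 75, 90 and 105 min (red) and at 15, 30 and 45 min (blue), 1 point for each library, ordered by the size of the change. The red points of PHO84 lie at 9.62 to 9.88 and its blue points at 8.85 to 9.26, whereas those of PHO8, GDE1, PHO86, PHO81 and PPN1 overlap.

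Histone genes, which are transcribed in S phase, formed the list with the largest share of calls among the lists of at least 10 genes tested. Of 10 histone genes 7 rose (background 0.888%), the change of each of the 10 was above 0, and the median was 0.41. HHF1, which encodes histone H4 (chromosome II, 255373 to 255684), had 10.60, 10.60 and 10.67 log2 RPM at 75, 90 and 105 min, against 10.18, 9.98 and 10.25 at 15, 30 and 45 min. It rose by 0.49 (SE 0.069, limma adjusted p = 1.59e-05), with all late values above all early ones. HTA1, for histone H2A, had 10.77, 10.76 and 10.77 log2 RPM late, against 10.34, 10.28 and 10.43 early, and rose by 0.42 (SE 0.062, limma adjusted p = 2.69e-05). HHT1 (H3), HTB2 (H2B) and HHF2 (H4) rose by 0.44, 0.42 and 0.38, and HTB1 and HTA2 by 0.39 and 0.29. The calls of HHF1, HTA1, HHT1, HTB2 and HHF2 held, while HTB1 and HTA2 passed in 2 of the 6 fits. The 3 that did not pass were HTZ1, the H2A variant, at 0.42 (limma adjusted p = 0.0555), HHO1, the linker histone, at 0.38 (limma adjusted p = 0.271) and HHT2 at 0.10 (limma adjusted p = 0.562). Each core histone is encoded by a pair of similar genes, so reads could be split within a pair.

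The time course places these levels. Histone genes held 1.05% of reads in the high-phosphate library at 0 min, then 0.819%, 0.766% and 0.865% at 15, 30 and 45 min, 0.945% at 60 min, and 1.05%, 1.02% and 1.05% at 75, 90 and 105 min. The late libraries lay close to the level of the single high-phosphate library, and the early ones below it. Among 33 other G1/S genes tested 1 rose (background 0.888%). This was MNN1, a Golgi mannosyltransferase, at 0.74 (SE 0.14, limma adjusted p = 0.00135), a call that held. The list had a median of 0.19, with 28 changes above 0 and 5 below. None of 37 G2/M and M/G1 genes passed between the groups in limma (4 at an unadjusted p under 0.05), and their median was -0.02. By the slope 1 of them rose (background 1.14%), AMN1, an antagonist of mitotic exit, at 0.55 over 60 min (limma adjusted p = 0.00875).

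**Figure D3:**
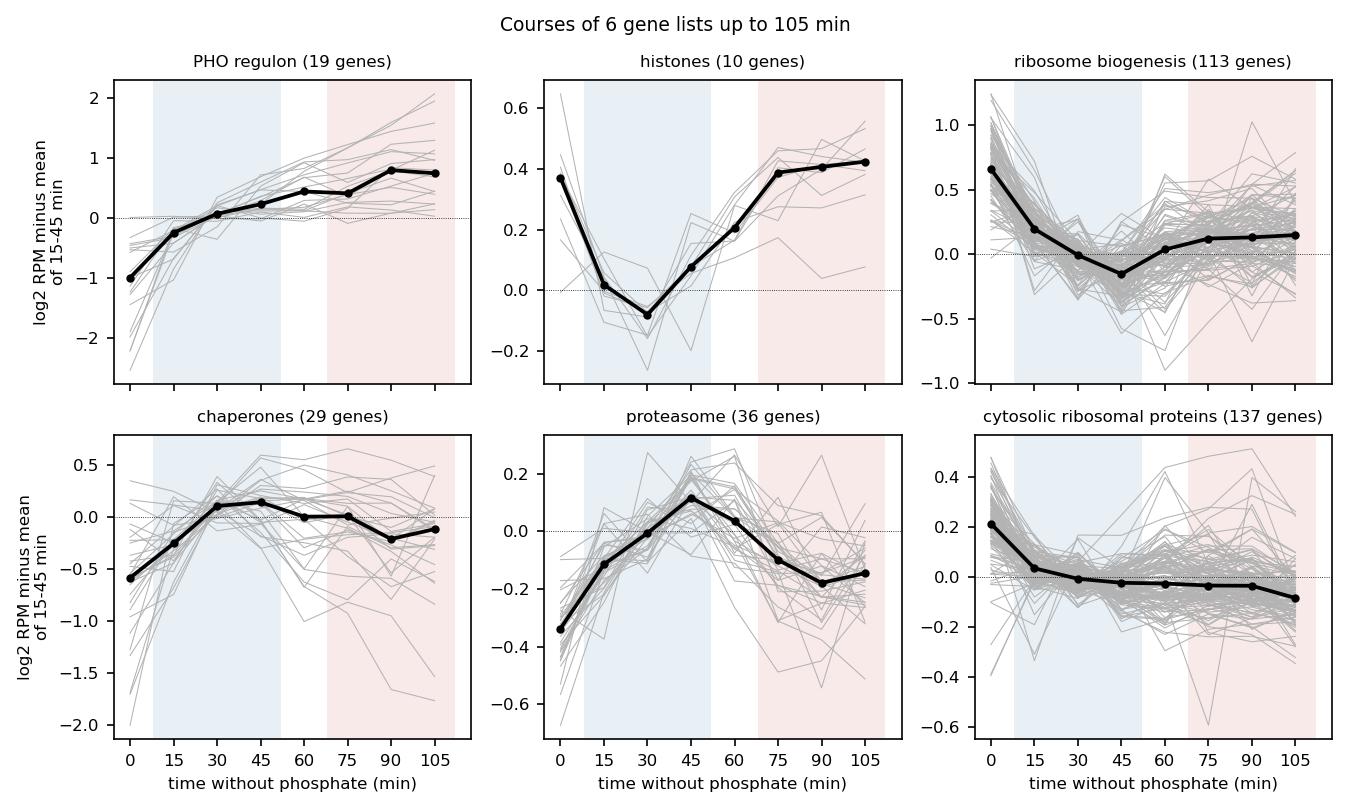
Level at each time minus the mean of 15-45 min (log2, vertical axis) against time without phosphate (min) for 6 gene lists, with members in grey and their median in black, and with red shading over 75-105 min and blue shading over 15-45 min. The histone median stood at 0.37 at 0 min, dipped to -0.08 at 30 min and reached 0.42 at 105 min, and the proteasome median went the other way, with -0.34 at 0 min, 0.12 at 45 min and -0.15 at 105 min.

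A few enzymes of amino acid synthesis rose. LEU1, isopropylmalate isomerase of the leucine pathway (chromosome VII, 476313 to 478652), had 9.29, 9.50 and 9.51 log2 RPM at 75, 90 and 105 min, against 8.58, 8.66 and 8.69 at 15, 30 and 45 min. The groups lay well apart, and the change of 0.79 (SE 0.086, limma adjusted p = 5.88e-08) held. At 0 min LEU1 stood at 9.45, close to its late level. HIS4, a histidine enzyme with several activities, had 7.86, 8.15 and 8.18 log2 RPM late, against 7.28, 6.97 and 7.65 early, a change of 0.76 (SE 0.14, limma adjusted p = 0.00433) that was lost without the 90 or the 105 min library. HIS1, the entry enzyme of the histidine pathway, rose by 0.40 (SE 0.071, limma adjusted p = 0.000467), and that call held. ARG1, argininosuccinate synthetase, rose by 0.81 (SE 0.21, limma adjusted p = 0.0391) but passed in 1 of the 6 fits. BAT2, the cytosolic branched-chain aminotransferase, went the other way, with 7.65, 7.59 and 7.32 log2 RPM late and 8.10, 8.41 and 8.18 early, a change of -0.71 (SE 0.11, limma adjusted p = 7.94e-05) that held. These are 4 of 62 genes higher and 1 lower, against 0.888% and 1.01% of all genes, and the median of the list was 0.04. Without the 105 min library 2 members were among the 21 genes that rose. The window of HIS4 (chrIII:68284-68583, minus strand, build R64) is shown for its pair of matches to TGACTC, the core bound by the activator Gcn4, in capitals 243 and 199 bases before the start codon. The last base of the second match is the first base of a CACGTT, a weaker Pho4 core.
HIS4: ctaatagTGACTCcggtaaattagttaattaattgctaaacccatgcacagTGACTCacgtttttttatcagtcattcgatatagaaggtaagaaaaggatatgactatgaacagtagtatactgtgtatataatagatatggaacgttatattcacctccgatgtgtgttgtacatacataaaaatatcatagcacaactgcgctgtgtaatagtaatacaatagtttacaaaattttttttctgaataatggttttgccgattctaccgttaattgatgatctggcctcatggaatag
TGACTC was found on either strand in 32 of 61 amino acid synthesis windows (52.5%), in 8.49% of all windows and in 9.30% of the windows of genes that rose.

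Other metabolic genes that rose belonged to purine, sterol and sugar pathways. Of 26 purine and one-carbon genes 3 rose (background 0.888%), namely HPT1, the hypoxanthine and guanine salvage enzyme, by 0.63 (SE 0.12, limma adjusted p = 0.000700), AAH1, adenine deaminase, by 0.56 (SE 0.13, limma adjusted p = 0.00895) and MTD1, a folate dehydrogenase, by 0.50 (SE 0.14, limma adjusted p = 0.0489). HPT1 had 7.70, 7.88 and 7.73 log2 RPM late, against 7.19, 7.02 and 7.21 early, and its call held. AAH1 and MTD1 passed in 3 of the 6 fits, both being lost without the 90, 105 or 30 min library, and 7 members of the list were among the 70 genes that rose without 15 min. Of 25 ergosterol genes 3 rose (background 0.888%). ERG3, a sterol desaturase, rose by 0.50 (SE 0.096, limma adjusted p = 0.00134), which held, ERG1, squalene epoxidase, by 0.43 and ERG25, a methyl sterol oxidase, by 0.29. ERG1 was lost without the 105 or the 30 min library and ERG25 passed in 1 of the 6 fits. ERG25 also missed the threshold when each library was centred on its median gene.

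Of 6 hexose transporter and glucose sensing genes tested, HXT1, a low-affinity glucose transporter, had 7.81, 7.59 and 7.67 log2 RPM late, against 6.71, 7.21 and 7.32 early. It rose by 0.61 (SE 0.13, limma adjusted p = 0.00701) and HXT3 by 0.38 (SE 0.099, limma adjusted p = 0.0320), and neither passed without the 75 or the 105 min library. These are 2 of the 6, against 0.888% of all genes. Transporter genes of this family resemble each other, so reads could be shared among them. In glycolysis TDH3, the most abundant glyceraldehyde-3-phosphate dehydrogenase gene, rose by 0.22 (SE 0.031, limma adjusted p = 1.17e-05), with 14.55, 14.61 and 14.54 log2 RPM late and 14.29, 14.37 and 14.37 early, and held. PGK1, phosphoglycerate kinase, rose by 0.25 (SE 0.058, limma adjusted p = 0.0157) and passed in 3 of the 6 fits, and its change was -0.0050 with the 60 and 120 min libraries added. TDH3 and PGK1 were 2 of 21 genes of glycolysis and fermentation, against 0.888% of all genes, and the median of the list was 0.06.

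The remaining large rises were scattered. YOR338W and RAD50, the second a DNA repair protein, rose by 1.01 (limma adjusted p = 0.0405) and 0.99 (limma adjusted p = 0.0455) at low levels, with late means of 5.02 and 4.93 log2 RPM and early means of 4.01 and 3.94. PAN6, pantothenate synthase, rose by 0.74, RNH203, an RNase H2 subunit, by 0.67, MAE1, the mitochondrial malic enzyme, by 0.63, and CDA1, a chitin deacetylase, by 0.63. None of these 6 calls held, and RAD50 and PAN6 passed in 1 of the 6 fits. CWP2, a cell wall mannoprotein, CIS3, a cell wall glycoprotein, and ZEO1, a plasma membrane protein, rose by 0.39, 0.41 and 0.41, and all 3 calls held. MFA1, an a-factor gene, rose by 0.29 (limma adjusted p = 0.0201) and passed in 1 of the 6 fits.

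The gene with the lowest p-value of all was ALD6, the cytosolic acetaldehyde dehydrogenase that makes NADPH and acetate (chromosome XVI, 432588 to 434090). It had 10.68, 10.40 and 10.43 log2 RPM at 75, 90 and 105 min, against 11.42, 11.50 and 11.42 at 15, 30 and 45 min. The early values were nearly equal and the late ones clearly below them, a change of -0.94 (SE 0.064, limma adjusted p = 5.18e-12) that held. At 0 min ALD6 stood at 10.12, so its late level lay nearer to that of the high-phosphate library. ALD4, the mitochondrial isoenzyme, had 7.71, 7.86 and 7.75 log2 RPM late, against 8.79, 8.63 and 8.67 early, and fell by 0.92 (SE 0.099, limma adjusted p = 5.88e-08). GND1, the NADPH-forming 6-phosphogluconate dehydrogenase, fell by 0.56 (SE 0.088, limma adjusted p = 6.61e-05), and 2 enzymes that use NADPH, the alcohol dehydrogenase ADH6 and the reductase GRE2, fell by 0.53 each (limma adjusted p = 2.69e-05 and 0.00121). The calls of ALD4, GND1, ADH6 and GRE2 held. These genes were grouped here after their values were seen and come from no list. Of their relatives, ALD2, ALD3, ALD5 and GND2 had changes of 0.0039, 0.07, 0.23 and 0.30, and ZWF1, which acts before GND1, one of -0.23, and none of these 5 passed (limma adjusted p = 0.999, 0.956, 0.347, 0.726 and 0.428).

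Of 21 oxidative stress genes 3 fell (background 1.01%) and the median was -0.10. ATR1, a drug efflux pump, had 6.83, 6.69 and 6.19 log2 RPM late, against 7.36, 7.49 and 7.25 early, a change of -0.80 (SE 0.14, limma adjusted p = 0.000645). SOD1, copper-zinc superoxide dismutase, fell by 0.39 (SE 0.055, limma adjusted p = 1.33e-05), and GLR1, glutathione reductase, fell by 0.39 (SE 0.096, limma adjusted p = 0.0224). ATR1 and SOD1 held, and GLR1 passed in 2 of the 6 fits. Outside the list, the multidrug pump SNQ2 fell by 0.70 (limma adjusted p = 0.00121), the polyamine exporter TPO4 fell by 0.82 (limma adjusted p = 0.00457) and the glutathione transferase GTT2 fell by 0.63 (limma adjusted p = 0.0201), of which SNQ2 held and TPO4 and GTT2 did not pass without the 75 or the 30 min library.

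The largest fall that passed was that of BTN2, which with its relative CUR1 directs misfolded proteins to deposits. BTN2 (chromosome VII, 772454 to 773686) had 6.13, 5.40 and 5.29 log2 RPM late, against 6.76, 7.40 and 7.02 early, a change of -1.45 (SE 0.21, limma adjusted p = 0.000700). CUR1 had 5.65, 5.51 and 4.93 log2 RPM late, against 6.62, 6.60 and 6.17 early, a change of -1.10 (SE 0.19, limma adjusted p = 0.000313). Both calls held, and at 0 min the genes stood at 5.37 and 5.19, within the range of their late values. HSP42, a small heat-shock protein, fell by 0.60 (SE 0.15, limma adjusted p = 0.0256) and MDJ1, a mitochondrial co-chaperone, fell by 0.52 (SE 0.14, limma adjusted p = 0.0304). HSP42 did not pass without the 75, 105 or 30 min library, and MDJ1 passed in 2 of the 6 fits. These 4 were the genes that passed among 29 chaperone genes (background 1.01%), whose median was -0.13. In the fits with a library left out, 2 of the list fell without 75, 105 or 30 min, and 6 of the 66 genes that fell without 45 min were chaperone genes. HSP82 and SSA1, abundant chaperones of the Hsp90 and Hsp70 families, had changes of -0.36 and 0.53 with limma adjusted p-values of 0.793 and 0.709 and overlapping groups.

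Genes of the induced stress response had a median change near 0, over a course that was not level. Their median relative to the 15-45 min mean stood at -0.93 in the 0 min library, at -0.18, 0.03 and 0.17 in the next 3, at 0.11 in the 60 min library, and at -0.07, -0.09 and 0.07 from 75 to 105 min. The list held 1.36%, 1.31% and 1.45% of reads at 75, 90 and 105 min, and 1.16%, 1.38% and 1.62% at 15, 30 and 45 min. Of 54 tested, ALD4, SPI1, HSP42 and MSC1 fell (background 1.01%), PHM8 rose (0.888%), and the median was -0.01, with 26 changes above 0 and 28 below. SPI1, a cell wall protein, had 5.56, 5.27 and 5.39 log2 RPM late, against 6.67, 6.24 and 5.98 early, a change of -0.89 (SE 0.18, limma adjusted p = 0.00299) that held. MSC1 fell by 0.42 (limma adjusted p = 0.0304) and passed in 1 of the 6 fits, and its direction turned with 120 min added, at 0.075, and with 60 and 120 min added, at 0.072. HSP26, another small heat-shock gene, had a change of 0.37 (limma adjusted p = 0.137). With each library centred on its median gene 6 members fell, against 1.07% of all genes, and with a library left out the number was 2 without 75, 105 or 30 min and 7 of the 72 genes that fell without 15 min. The window of HSP42 (chrIV:806371-806670, plus strand, build R64) is shown for its 3 copies of AGGGG, the stress response element bound by Msn2 and Msn4, in capitals 212, 200 and 182 bases before the start codon.
HSP42: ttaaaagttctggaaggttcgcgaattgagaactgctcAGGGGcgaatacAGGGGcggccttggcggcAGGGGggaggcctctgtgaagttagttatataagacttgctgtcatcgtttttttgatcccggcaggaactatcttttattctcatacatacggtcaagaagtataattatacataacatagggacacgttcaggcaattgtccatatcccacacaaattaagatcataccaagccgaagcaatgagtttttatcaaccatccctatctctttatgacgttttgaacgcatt
AGGGG on either strand was found in 18 of 47 windows of genes that fell (38.3%), 11 of 43 windows of genes that rose (25.6%), 39 of 54 windows of the stress list (72.2%) and 21.5% of all windows.

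Single genes of nitrogen and iron metabolism fell steeply. CAR1, arginase, had 6.56, 6.30 and 6.49 log2 RPM late, against 7.45, 7.54 and 7.38 early, a change of -1.01 (SE 0.13, limma adjusted p = 3.02e-06) that held. DUR1_2, urea amidolyase, which acts after arginase, fell by 0.72 (limma adjusted p = 0.0417) and passed in 1 of the 6 fits. They were 2 of 20 nitrogen scavenging genes (background 1.01%), whose median was 0.05, with 11 changes above 0 and 9 below. DIP5, a permease for glutamate and aspartate, had 5.56, 5.23 and 5.58 log2 RPM late, against 6.24, 6.66 and 6.57 early, and fell by 1.03 (SE 0.17, limma adjusted p = 0.000204), which held. FIT2, a cell wall protein that retains iron siderophores, had 5.70, 5.48 and 5.42 log2 RPM late, against 6.58, 6.82 and 6.53 early, and fell by 1.11 (SE 0.16, limma adjusted p = 2.63e-05). ISU1, a scaffold for iron-sulfur clusters, fell by 0.72 (SE 0.14, limma adjusted p = 0.00134). FIT2 and ISU1 held, were 2 of 26 iron and copper genes (background 1.01%), and stood beside a list median of -0.15. The siderophore genes SIT1 and FIT3 had changes of -0.80 (limma adjusted p = 0.427) and -0.71 (limma adjusted p = 0.106) and passed by the slope (limma adjusted p = 0.0140 and 0.0310). Without the 45 min library 5 iron and copper genes were among the 66 that fell.

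A few genes of methyl group and lipid metabolism fell. In the sulfur list 3 of 27 genes fell (background 1.01%). SAM2, S-adenosylmethionine synthetase, fell by 0.51 (SE 0.12, limma adjusted p = 0.0160), SAH1, S-adenosylhomocysteine hydrolase, fell by 0.36 (SE 0.096, limma adjusted p = 0.0373) and MET6, methionine synthase, fell by 0.27 (SE 0.068, limma adjusted p = 0.0239). No member passed in limma without the 90, 105 or 30 min library (474, 495 and 484 of all genes at an unadjusted p under 0.05), and the median of the list was -0.10. In phospholipid synthesis 2 of 28 genes fell (background 1.01%). CHO2, which carries out the first methylation towards phosphatidylcholine, had 8.86, 8.97 and 8.99 log2 RPM late, against 9.47, 9.36 and 9.24 early. It fell by 0.42 (SE 0.084, limma adjusted p = 0.00239) and was lost without the 75 min library. ACC1, acetyl-CoA carboxylase, fell by 0.41 (SE 0.098, limma adjusted p = 0.0251), although its 105 min value of 9.31 exceeded its 45 min value of 9.30. OPI3, which completes the methylation series, had 7.98, 7.80 and 8.25 log2 RPM late, against 9.81, 9.53 and 9.0 early. Its change of -1.44 (SE 0.25) did not pass (limma adjusted p = 0.106), nor did those of ITR1, the inositol transporter, at -0.83 (limma adjusted p = 0.501) and CHO1, phosphatidylserine synthase, at -0.65 (limma adjusted p = 0.346), all 3 with falling early values and no overlap between the groups. None of the phospholipid genes passed in limma without the 75 min library, where 532 of all genes had an unadjusted p under 0.05, and 5 were among the 72 genes that fell without 15 min.

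Among further falls, RIB4, the lumazine synthase of riboflavin synthesis, had 9.34, 9.22 and 9.26 log2 RPM late, against 10.19, 10.26 and 9.94 early, a change of -0.85 (SE 0.080, limma adjusted p = 3.29e-09). YPR036W-A, which RefSeq names SPO24, fell by 1.01 (SE 0.10, limma adjusted p = 2.56e-08), with 7.77, 7.71 and 7.44 log2 RPM late and 8.61, 8.71 and 8.65 early. CWP1, a cell wall mannoprotein, fell by 0.78 (SE 0.12, limma adjusted p = 3.13e-05), opposite to its relative CWP2 above. YLR108C fell by 0.84 (limma adjusted p = 0.00210), and PNS1, a membrane protein of the choline transporter-like family, fell by 0.98 (limma adjusted p = 0.00886). All of these held except PNS1, which did not pass without the 90 min library. NPL3, an RNA-binding protein, and YDR433W both fell by 0.45 with nearly equal values in each library, calls that ended without the 75, 90 or 30 min library. At 0 and 120 min both had the same values, 8.47 and 7.93 log2 RPM, and over 135 to 360 min the same median, 8.37. Both are counted among the 49 genes that fell. No position of YDR433W was found in the annotation, so whether the same reads were counted for both was not tested.

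Translation genes shifted little. Of 137 cytosolic ribosomal protein genes RPS1A, RPL8B and RPL41A fell (background 1.01%), with changes of -0.26, -0.25 and -0.24, while 100 changes lay below 0 and 37 above and the median was -0.05. RPL41A had 14.06, 14.02 and 14.04 log2 RPM late, against 14.26, 14.26 and 14.32 early (SE of the change 0.031, limma adjusted p = 3.02e-06), and the call held, although its slope did not pass (limma adjusted p = 0.460). Its direction turned with the 120 min library added to the late group, at 0.063, and with 60 and 120 min added, at 0.035. RPS1A was lost without the 105 min library, and RPL8B passed in 1 of the 6 fits, while 7 of the 66 genes that fell without the 45 min library were ribosomal protein genes. Many of these genes come in near-identical pairs, RPL41A included, whose reads could be split. The list held 27.2%, 27.2% and 26.3% of reads at 75, 90 and 105 min, and 28.7%, 28.0% and 27.7% at 15, 30 and 45 min. EFT1, a gene for elongation factor 2 with an identical protein product from EFT2, fell by 0.26 (limma adjusted p = 0.0224). It was the 1 of 27 translation factor genes that passed (background 1.01%), and it passed in 2 of the 6 fits.

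Genes that build ribosomes had mostly small positive changes. Of 113 ribosome biogenesis genes 1 rose and 1 fell, against 0.888% and 1.01% of all genes. UTP21, a processome subunit, rose by 0.52 (SE 0.13, limma adjusted p = 0.0201) and GAR1, a protein of snoRNA particles, fell by 0.32 (SE 0.082, limma adjusted p = 0.0256). Each passed in 2 of the 6 fits. The median of the list was 0.14, with 87 changes above 0 and 26 below, and in 20 genes all late values exceeded all early ones, against 9.69% of all genes. Its course dipped first, with medians relative to the 15-45 min mean of 0.66 at 0 min, -0.15 at 45 min and 0.15 at 105 min. GATGAG, the PAC motif, was found on either strand in 107 of 113 windows of this list (94.7%) and 20.2% of all windows, and AAAATTTT, the RRPE motif, in 76.1% and 10.4%. None of 20 subunits of RNA polymerases I and III passed between the groups in limma (4 at an unadjusted p under 0.05), and their median was 0.13.

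Proteasome genes had mostly small negative changes. Of the 36 tested 34 changes lay below 0, and the median was -0.13. PRE6, an alpha subunit of the core particle (chromosome XV, 255337 to 256101), had 8.23, 8.16 and 8.02 log2 RPM late, against 8.29, 8.59 and 8.73 early. It was the 1 member that passed (background 1.01%), with a change of -0.40 (SE 0.11, limma adjusted p = 0.0391), and it did so in 1 of the 6 fits with a library left out. RPN4, the transcription factor of proteasome genes, had a change of -0.40 (SE 0.15, limma adjusted p = 0.205) with no overlap between the groups. The window of PRE6 (chrXV:255087-255386, plus strand, build R64) shows the site that these genes share, GGTGGCAAA, bound by Rpn4, which lies here on the opposite strand and begins 109 bases before the start codon.
PRE6: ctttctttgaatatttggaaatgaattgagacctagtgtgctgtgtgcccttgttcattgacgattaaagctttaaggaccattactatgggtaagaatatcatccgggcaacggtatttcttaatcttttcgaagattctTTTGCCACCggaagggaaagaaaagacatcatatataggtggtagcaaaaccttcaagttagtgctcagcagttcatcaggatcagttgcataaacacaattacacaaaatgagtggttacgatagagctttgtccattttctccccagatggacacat
The capitals give the match as it reads on the strand of the gene. GGTGGCAAA was found on either strand in 28 of 36 proteasome windows (77.8%) and in 1.37% of all windows.

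In other lists no gene passed between the groups in limma, and the member with the largest change is given as a value. Among 48 genes of the TCA cycle and respiration (4 at an unadjusted p under 0.05) it was ATP14 at 0.43, among 69 mitochondrial ribosomal proteins (4) MRPL4 at -0.54, and among 22 genes of autophagy and vacuolar proteases (3) ATG18 at 0.58. It was GDB1 at -0.75 among 18 trehalose and glycogen genes (1 at an unadjusted p under 0.05), ACS1 at 0.38 among 10 genes of gluconeogenesis and fatty acid oxidation (1) and SCJ1 at -0.38 among 14 genes of folding in the endoplasmic reticulum (2). IZH4 stood at 0.56 in the zinc regulon of 9 (3 at an unadjusted p under 0.05), FIG2 at 0.56 among 15 pheromone genes (1), DIT1 at 0.22 among 3 meiosis genes (0) and ALG9 at -0.43 among 13 housekeeping genes (4). CLB4 at 0.61 was the largest of the G2/M list, RPC19 at 0.38 of the polymerase subunits, and STE3 at 0.18 was the 1 tested gene of mating type alpha.

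**Figure D4:**
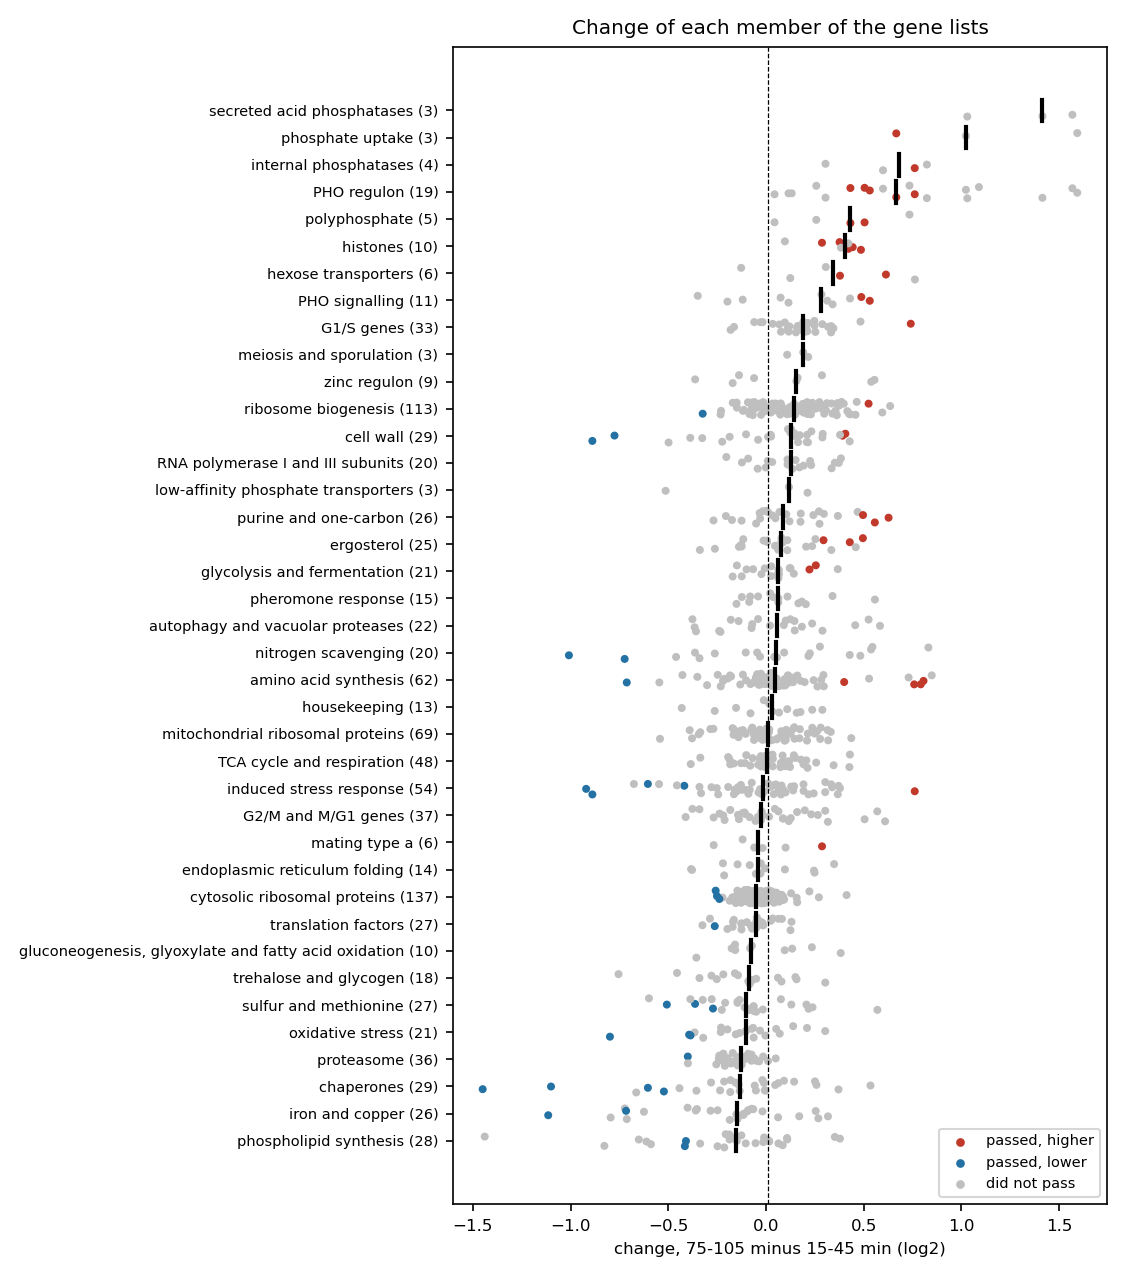
Change between 75-105 and 15-45 min (log2, horizontal axis) of each tested member of the gene lists with at least 3 such members, ordered by their medians (black bars, number of genes in brackets), with genes that rose in red, genes that fell in blue, the rest in grey and the median of all genes, 0.01, as a dashed line. The PHO regulon, its uptake, polyphosphate and phosphatase groups and the histones stand at the top, with medians of 0.41 or more, and phospholipid synthesis stands last at -0.15.

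The 60 and 120 min libraries took no part in the test that chose these genes. From 60 to 120 min, with values centred on the median gene listed in both, 36 of 45 genes that had fallen were lower at 120 min (80%), with a median of -0.54, against 50% of all 3221 genes listed in both. Of 39 genes that had risen 21 were higher at 120 min (53.8%, median 0.06). The 120 min library is the shallowest, with 209394 reads, and the share of depth in these differences was not tested.

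Later levels differed from gene to gene. Over 135 to 360 min the median level of PHO5 was 12.65 and that of PHO84 10.57 log2 RPM, both above all of their values at 75-105 min. ALD4 had a median of 9.70 and HSP42 of 7.46 log2 RPM there, above their values in both groups, although they had fallen between them. RIB4 at 8.89, GND1 at 7.85 and ADH6 at 8.28 log2 RPM lay below their late values, and LEU1 at 9.09 lay between its groups. These later libraries took no part in the comparison, and the values are given for orientation with no test.

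**Figure D5:**
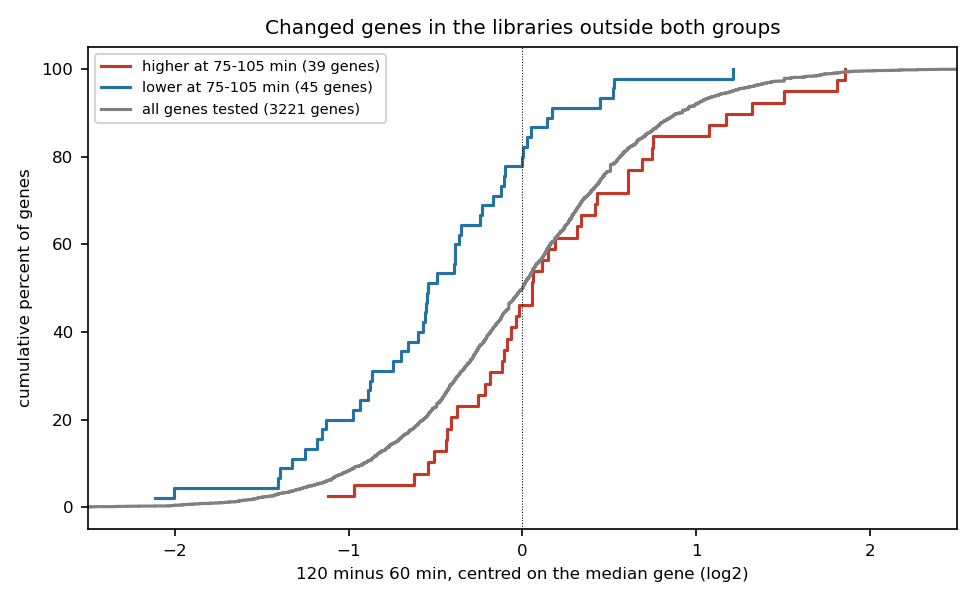
Cumulative percent of genes (vertical axis) against the difference of 120 minus 60 min, centred on the median gene (log2, horizontal axis), for 39 genes that rose (red), 45 that fell (blue) and all 3221 genes listed in both libraries (grey). The blue line lies left of the grey one, with 80% of its genes below 0.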

How the data were processed

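RNA of 25 samples of a time course was sequenced, 1 library for each time. The authors deposited 1 table of log2 values, which on the linear scale sum to 1000000 in each library and are written here as log2 RPM. A gene under 10 reads has no value. The submitters' processing notes name Bowtie and genome build R64. Not given in the sources used here are the aligner's version, the counting program, its use of strand and multiply mapped reads, and any molecular identifiers. Of 6701 lines, 51 hold no gene name and no value, and 5950 of 6650 named genes matched R64. Reads were recovered by taking the lowest value of each library as 10 reads, and were used for depth and for 1 alternative.

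The 3 libraries of each group entered limma 3.58.1 (R 4.3.3, trend and robust moderation, no pseudocount), with Benjamini-Hochberg adjustment over 4840 genes and a threshold of 0.05. The scripts were tested on simulated data with independent libraries and no trend within a group. The serial samples here differ from that setting, so the simulation does not measure the error rate of these calls. Genes named are all regulon members, the 12 largest rises and falls that passed without overlap, and up to 3 members of each list. Others were named after their values were seen. The members and lists were chosen with earlier results of these data known. Alternatives concerned scaling, filters, moderation, weights, the added libraries, libraries left out and a slope. Their list counts were added after seeing the data. Promoter windows of 300 bases were read from RefSeq R64. Python 3.11.15, pandas 2.3.3 and matplotlib 3.10.9 were used.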

Additional observations from a re-analysis of the deposited data

How the results depend on the processing

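Against 43 genes higher and 49 lower, adding the 60 min library to the early group gave 24 and 31, adding the 120 min library to the late group gave 0 and 0 (limma, 368 genes at an unadjusted p under 0.05), adding both gave 0 and 0 (357 genes), and moderation without trend and robust options gave 0 and 0 (556 genes). Leaving out 1 library gave 20 to 70 higher and 26 to 72 lower. Centring, both filters, RPM + 10, weights and the slope gave 40 to 55 higher and 43 to 52 lower. The change of PPN1, 0.04, was -0.014 with 60 min added and ran from -0.0043 to 0.11 with a library left out. PHO8, 0.30, ran from -0.038 to 0.54. RPL41A, -0.24, was 0.063 with 120 min added and 0.035 with 60 and 120 min added. PGK1, 0.25, was -0.0050 with both added. MSC1, -0.42, was 0.075 with 120 min and 0.072 with both. The cause of these shifts was not tested. No other of the 152 genes followed through these alternatives turned its direction. ALD2, ALD3, ALD5, GND2, ZWF1, AMN1, ARG82, IPK1, VIP1 and DDP1, named above, were not among them. No paired analysis was possible because each time has 1 library and replicate numbers only follow accession order. The 120 min library, with 209394 reads and 3261 genes listed, is the shallowest, and scarce genes below 10 reads have no value. The number of cultures behind the course is not given, so variation between cultures and change with time cannot be told apart.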

Other observations

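A few genes near the lowest value listed appeared in only one of the groups and were not tested. BUD19, GAS4, YJL119C and YJR061W had values at 75, 90 and 105 min, with means of 3.73, 3.72, 3.58 and 3.42 log2 RPM, and none at 15, 30 and 45 min. ANS1, SWI1 and TIR4, the last a cell wall mannoprotein gene, had values at 15, 30 and 45 min, with means of 3.28, 3.28 and 3.02 log2 RPM, and none at 75, 90 and 105 min. These are the 4 genes listed in all 3 late libraries and no early one, and the 3 with the reverse. Genes listed in only some libraries of a single group were not counted. BUD19 was chosen by this pattern, as were the others, so it is no evidence of a difference.

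The slope over 15 to 105 min passed for 20 genes that rose and 7 that fell without a call between the groups. HXT2, a hexose transporter, had a limma adjusted p of 0.0479 by the slope beside 0.158 between the groups.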
